A study of Mus musculus with 4 samples.

Results

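The genes described here encode proteins of the mitochondrial ribosome, taken as every gene name in the value tables that begins with Mrpl or Mrps followed by a number, without Mrps6. They are 61 of 26614 gene names and carry 152 of 80929 accessible regions, each region being named by the authors for its nearest gene. Of these genes, 40 encode proteins of the large subunit and 20 of the small subunit. The remaining gene, Mrps36, encodes a protein now placed in the 2-oxoglutarate dehydrogenase complex and not in the ribosome. Mrps18a and Mrps30 carry small-subunit names but their proteins sit in the large subunit, so they are counted there. The genes lie on 17 chromosomes, 24 of them have a single region and 37 have several, up to 7.

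Chromatin accessibility was profiled by ATAC-seq, in which a transposase cuts open DNA and tags it for sequencing, in RAW264.7 cells, an established mouse macrophage-like line. Cells were plated at 1000000 per well in 12-well plates and profiled after 48 h. Sample titles assign 2 libraries to Gel and 2 to CuNZ@Gel, which the series title calls a nanozyme hydrogel, and no untreated sample is among them. The treatment description names only CuNZ@Gel for every sample, so the identity of the Gel group rests on titles alone. Nothing in the labels states that replicates came from separate wells, so the spread among the 4 libraries may be technical. The p-values reflect that spread only in part, since the test also pools variance over the whole table by level. A bulk library also cannot tell fewer cells with an open region from a region that is less open in every cell.

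Reads in regions numbered 18843339 and 17915102 in the Gel libraries and 7440951 and 10236719 in the CuNZ@Gel libraries, of which 56368, 52167, 19656 and 26923 fell in regions of the mitochondrial ribosomal protein genes. Region reads relative to the genome background level recovered from the peak lists were 18.8 and 18.6 (in 1e6) in Gel. They were 6.37 and 8.53 in CuNZ@Gel, so every difference between the groups coincides with this difference in signal. The treatment and the signal cannot be told apart. The recovered level accounted for the fold and p-value of 39.6% and 34.5% of low-fold peaks in the Gel libraries. In the CuNZ@Gel libraries it did so for only 8.37% and 10.9%, so it is less certain there. Of 10 macrophage marker genes 9 had a region, with summed levels of 1315 and 1330 RPM in Gel and 986 and 1014 in CuNZ@Gel. RPM are reads scaled to 1000000 effective reads, which are reads in regions times a library factor recovered from the deposited values. That factor was 0.910 and 0.902 in Gel and 1.11 and 1.10 in CuNZ@Gel, which lowers RPM in CuNZ@Gel relative to Gel. Fibroblast markers had a region in 3 of 6 cases and summed to 38.7 to 40.4 RPM in Gel and 41.9 to 43.8 in CuNZ@Gel. Lymphocyte markers (4 of 6) summed to 60.4 to 61.3 and 53.8 to 61.7 RPM, and markers of unrelated tissues (3 of 6) to 19.5 to 22.9 and 21.8 to 28.9 RPM. The part of these marker differences in the results below was not tested.

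Mitochondria keep their own ribosome, descended from that of bacteria, which makes the few membrane proteins of the respiratory chain and ATP synthase encoded in mitochondrial DNA. All of its proteins are encoded in the nucleus, made in the cytosol and imported, while its RNA comes from the mitochondrial genome. Some subunits have bacterial homologues and others arose in mitochondria. Their promoters are typically rich in CpG and often carry sites for NRF1, ETS factors such as GABP, and YY1, which are known regulators of nuclear genes for mitochondrial proteins. In macrophages, respiratory chain output is known to shift with activation state.

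To show what such promoters look like, stretches upstream of the start of genes on which the results turn are printed from RefSeq (build GRCm38.p6), running towards the first gene named. Mrps18b and Mrpl24 are shown because their accessibility fell most. Mrpl17 is shown for its NRF1 and ETS matches, and Mrps18a because its fall was called with and without removal of the trend with level described below. The last 3 are whole intervals between divergently transcribed neighbours. Capitals mark a match to the NRF1 core (GCGCA and GCGC with any 1 base between them) or the ETS motif CCGGAAG on either strand, and a stretch without capitals holds neither.
Mrps18b, chr17:35916441-35916690, minus strand: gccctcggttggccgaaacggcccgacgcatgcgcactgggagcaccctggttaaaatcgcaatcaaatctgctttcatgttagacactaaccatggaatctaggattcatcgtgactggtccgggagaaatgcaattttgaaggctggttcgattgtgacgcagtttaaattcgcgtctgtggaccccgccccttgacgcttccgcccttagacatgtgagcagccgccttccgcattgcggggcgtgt
Mrpl24, chr3:87919294-87919543, plus strand: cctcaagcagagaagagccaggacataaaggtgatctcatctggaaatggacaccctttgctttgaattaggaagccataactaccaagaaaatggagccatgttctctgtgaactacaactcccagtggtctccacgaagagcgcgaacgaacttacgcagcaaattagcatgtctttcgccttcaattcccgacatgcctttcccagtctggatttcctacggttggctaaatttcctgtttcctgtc
Mrpl17, chr7:105811088-105811337, minus strand: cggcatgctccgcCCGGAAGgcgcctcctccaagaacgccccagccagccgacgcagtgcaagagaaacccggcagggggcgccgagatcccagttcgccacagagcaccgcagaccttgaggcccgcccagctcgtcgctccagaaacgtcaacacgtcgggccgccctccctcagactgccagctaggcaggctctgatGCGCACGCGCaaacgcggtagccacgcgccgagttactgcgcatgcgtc
Mrps18a, chr17:46110754-46111003, plus strand: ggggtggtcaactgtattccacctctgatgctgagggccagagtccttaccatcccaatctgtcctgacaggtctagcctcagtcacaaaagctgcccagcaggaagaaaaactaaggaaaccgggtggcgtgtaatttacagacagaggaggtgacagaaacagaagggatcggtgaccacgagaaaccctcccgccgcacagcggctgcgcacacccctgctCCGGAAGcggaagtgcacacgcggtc
Mrpl57 to Ska3, chr14:57826164-57826238, plus strand: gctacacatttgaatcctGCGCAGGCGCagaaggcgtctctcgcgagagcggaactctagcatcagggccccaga
Mrps27 to Ptcd2, chr13:99344679-99344785, plus strand: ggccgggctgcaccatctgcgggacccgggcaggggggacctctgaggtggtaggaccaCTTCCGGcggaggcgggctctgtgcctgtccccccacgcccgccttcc
Mrps11 to Mrpl46, chr7:78783090-78783130, plus strand: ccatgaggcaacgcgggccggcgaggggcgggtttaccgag

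A window of 300 bases, from 250 before the start to 50 after it, was found in RefSeq for 54 of the 61 genes. Its median GC content was 57.7% and its median number of CpG dinucleotides 18, against 52.7% and 7 over all windows. The ETS motif CCGGAAG was present for 19 genes (35.2%, against 9.93% of all 27025 genes with a window) and the NRF1 core for 10 (18.5% against 5.19%). The stricter form of the core with T as the free base was present for 3 (5.56% against 1.07%), and the YY1 motif AAGATGGCG for 7 (13.0% against 1.64%). The Sp1 motif GGGCGG (46.3% against 38.2%) and CCAAT (44.4% against 41.1%) were closer to all genes. TATAAA (9.26% against 15.7%) and the E-box CACGTG (3.70% against 8.09%) were rarer. Both strands were searched, and a match describes the letters only.

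Chromatin near most mitochondrial ribosomal protein genes was lower in CuNZ@Gel. Summed over all 61 genes, reads came to 3288 and 3228 RPM in the Gel libraries and to 2383 and 2392 RPM in the CuNZ@Gel libraries. The groups did not overlap and replicates lay close together. Over all genes tested the sums were 1.10e+06 and 1.11e+06 RPM in Gel and 9.01e+05 and 9.09e+05 in CuNZ@Gel. The library factors given above are part of both gaps. The gene value, log2 of the RPM summed over a gene's regions plus 1, fell for 47 of the 61 genes and rose for 2, Mrps28 and Mrps11, in limma's test with Benjamini-Hochberg adjustment over 25900 genes at 0.05. Over all genes tested 36.1% were called lower and 20.5% higher. All 61 genes passed the filter on low values. The median log2 change was -0.39, against -0.10 over all genes. In 52 genes both CuNZ@Gel libraries lay below both Gel libraries and in 3 above them, and 6 overlapped, against 45.9% below and 30.9% above among all genes.

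**Figure D1:**
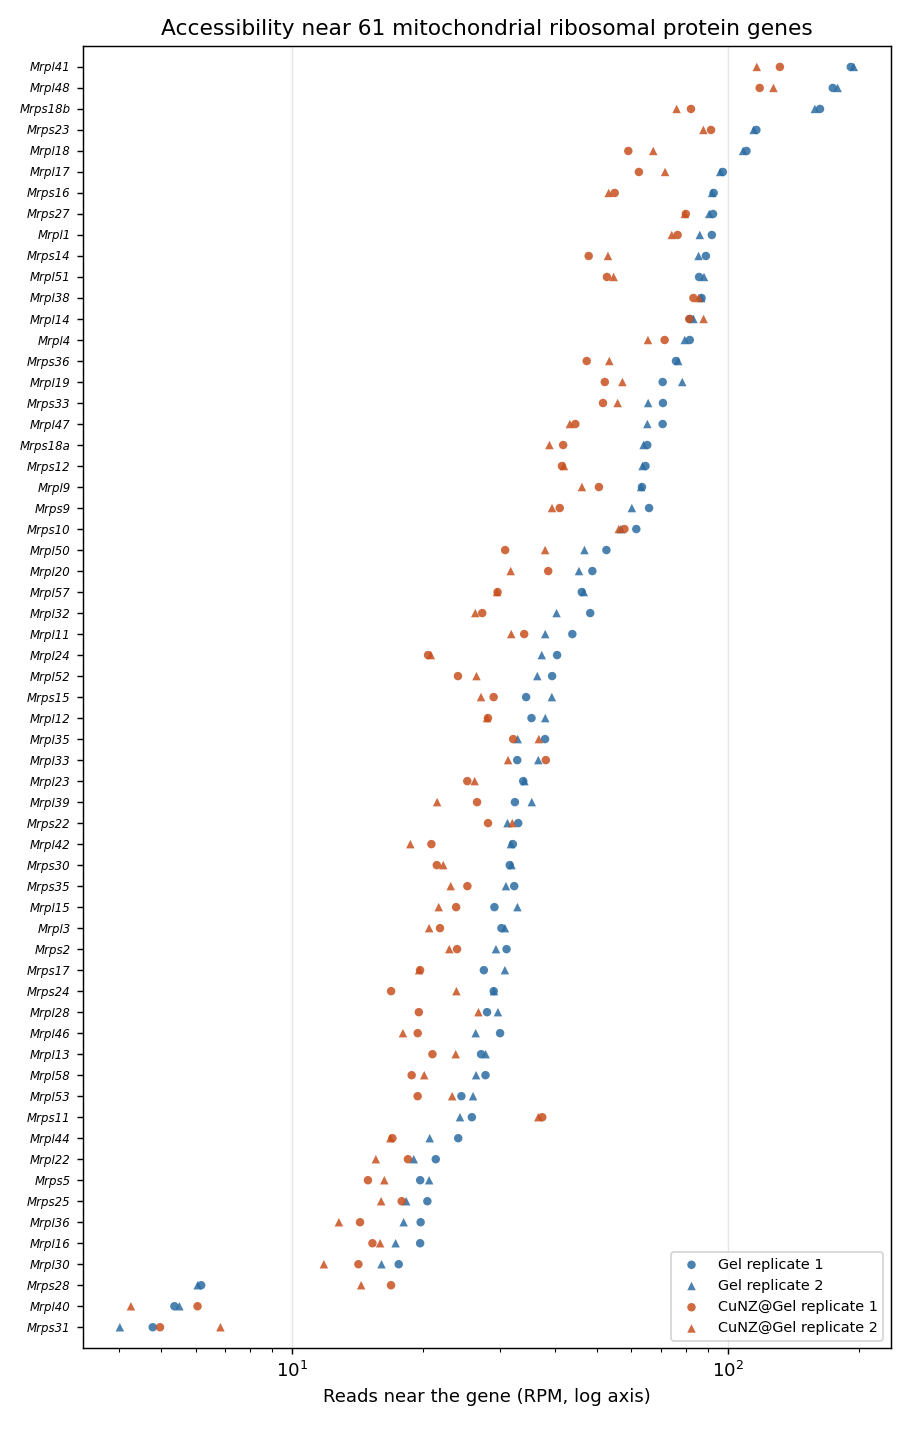
Reads near each of the 61 genes in RPM (log axis), 1 point per library, genes ordered by level; circles and triangles are replicates 1 and 2, blue is Gel and orange is CuNZ@Gel. Orange points lie left of the blue ones for 52 genes, and right of them for Mrps28, Mrps11 and Mrps31.

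These counts depended on the scaling. Across all regions, strong ones tended to be lower and weak ones higher in CuNZ@Gel. With that trend removed over gene sums, 29 of the 61 genes were lower and 6 higher (22.8% and 24.2% over all genes), with a median of -0.22. With the trend removed region by region before summing, an alternative chosen after the data were seen, 13 were lower and 5 higher (16.4% and 20.5% over all genes) and the median was -0.085, against -0.026 over all genes. Scaled by library totals alone, 19 were lower and 7 higher (18.7% and 34.3% over all genes), and the medians were -0.11 for these genes and 0.15 for all. Scaled to the genome background level, 58 were lower and 0 higher (75.5% and 2.77% over all genes), at medians of -1.42 and -1.06. That level was recovered with less certainty in CuNZ@Gel than in Gel. The direction of the group as a whole was thus lower on each scale, and its median lay nearest to that of all genes where the trend was removed region by region.

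Of 40 large-subunit genes 32 were lower and 0 higher (median -0.44), and of 20 small-subunit genes 14 were lower and 2 higher (median -0.36). The 38 genes with a bacterial homologue (30 lower, 2 higher, median -0.39) and the 22 specific to mitochondria (16 lower, 0 higher, median -0.42) had similar values. Over all genes 36.1% were lower and 20.5% higher. With the trend removed over gene sums, 20 large-subunit genes were lower and 2 higher, and 8 small-subunit genes lower and 4 higher. The bacterial homologues gave 17 and 4 there, and the mitochondria-specific genes 11 and 2 (22.8% and 24.2% over all genes). No difference between these classes was tested.

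Among small-subunit genes, Mrps18b, one of the paralogues that stand for bacterial S18, had the largest fall. Its single region, chr17:36227035-36228221 in GRCm39, held 163 and 158 RPM in Gel and 82.2 and 76.2 in CuNZ@Gel. The groups did not overlap, and the change was -1.01 ± 0.06 (log2 ± SE; limma adjusted p = 9.55e-11, n = 2 per group). Mrps14, whose protein belongs to the head of the small subunit, held 89.0 and 85.6 RPM in Gel and 47.9 and 53.0 in CuNZ@Gel, a change of -0.78 ± 0.08 (limma adjusted p = 4.71e-08). Mrps16 fell from 92.7 and 91.9 to 54.9 and 53.2 RPM, a change of -0.76 ± 0.07 (limma adjusted p = 2.35e-08). Mrps12, which encodes the decoding-centre protein that corresponds to bacterial S12, fell from 64.7 and 63.7 to 41.6 and 42.0 RPM, a change of -0.61 ± 0.08. In these genes replicates of a group differed by far less than the groups did. Mrps23, a mitochondria-specific subunit of high level, fell by less, from 116 and 114 to 91.4 and 87.8 RPM (-0.36 ± 0.06). Mrps31 was among the lowest genes, with 4.78 and 4.02 RPM in Gel and 4.97 and 6.84 in CuNZ@Gel, and was not called (0.34 ± 0.22, limma adjusted p = 0.188).

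In the large subunit the largest fall was that of Mrpl24, a homologue of bacterial L24, an early-assembling protein, with 40.5 and 37.4 RPM in Gel and 20.5 and 20.8 in CuNZ@Gel (-0.88 ± 0.11, limma adjusted p = 6.76e-07). Mrpl18 fell from 110 and 108 to 59.0 and 67.4 RPM (-0.78 ± 0.07) and Mrpl32, whose protein is matured by a protease of the inner membrane, from 48.3 and 40.4 to 27.3 and 26.3 RPM (-0.70 ± 0.10). For all of these genes the CuNZ@Gel libraries lay below the Gel libraries. Mrpl41, the gene with the highest level, held 191 and 194 RPM in Gel and 132 and 116 in CuNZ@Gel, a change of -0.64 ± 0.06. Mrpl48, next in level, fell from 174 and 178 to 118 and 127 RPM (-0.52 ± 0.05), and lost its call with the trend removed over gene sums (-0.08, limma adjusted p = 0.213). The stalk proteins that recruit translation factors had modest changes, Mrpl12 at -0.38 ± 0.10 and Mrpl11 at -0.30 ± 0.10 (limma adjusted p = 0.00314 and 0.0133). Leaving out Gel replicate 2 took Mrpl12 to limma adjusted p = 0.0618, and leaving out Gel replicate 1 or CuNZ@Gel replicate 2 took Mrpl11 to 0.238 or 0.0708. Neither was called with the trend removed over gene sums (limma adjusted p = 0.155 for Mrpl12 and 0.609 for Mrpl11). Mrpl58, which encodes a peptidyl-tRNA hydrolase built into the large subunit, fell by 0.46 ± 0.12. Mrps18a and Mrps30, counted here by the place of their proteins, fell by 0.67 ± 0.08 and 0.52 ± 0.11. Mrps36, outside the ribosome, held 76.0 and 76.9 RPM in Gel and 47.4 and 53.4 in CuNZ@Gel (-0.59 ± 0.08), a change of the same order as its namesakes. Mrpl58 and Mrps36 were not called with the trend removed over regions (limma adjusted p = 0.208 and 0.726).

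The genes called higher were both of the small subunit. Mrps28 has a single region, chr3:8998102-8998620 in GRCm39, with 6.18 and 6.07 RPM in Gel and 16.9 and 14.4 in CuNZ@Gel, from 98 to 162 reads per library. Both CuNZ@Gel libraries were far above both Gel libraries, a change of 1.22 ± 0.16 (limma adjusted p = 3.18e-06). Mrps11, whose protein lies on the platform of the small subunit, held 25.8 and 24.3 RPM in Gel and 37.5 and 36.7 in CuNZ@Gel, again without overlap, a change of 0.55 ± 0.10 (limma adjusted p = 0.000119). Both rises were also called with the trend removed in either way. On the background scale neither was called, with Mrps28 at 0.26 and Mrps11 turning to -0.48 (limma adjusted p = 0.320 and 0.0799).

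**Figure D2:**
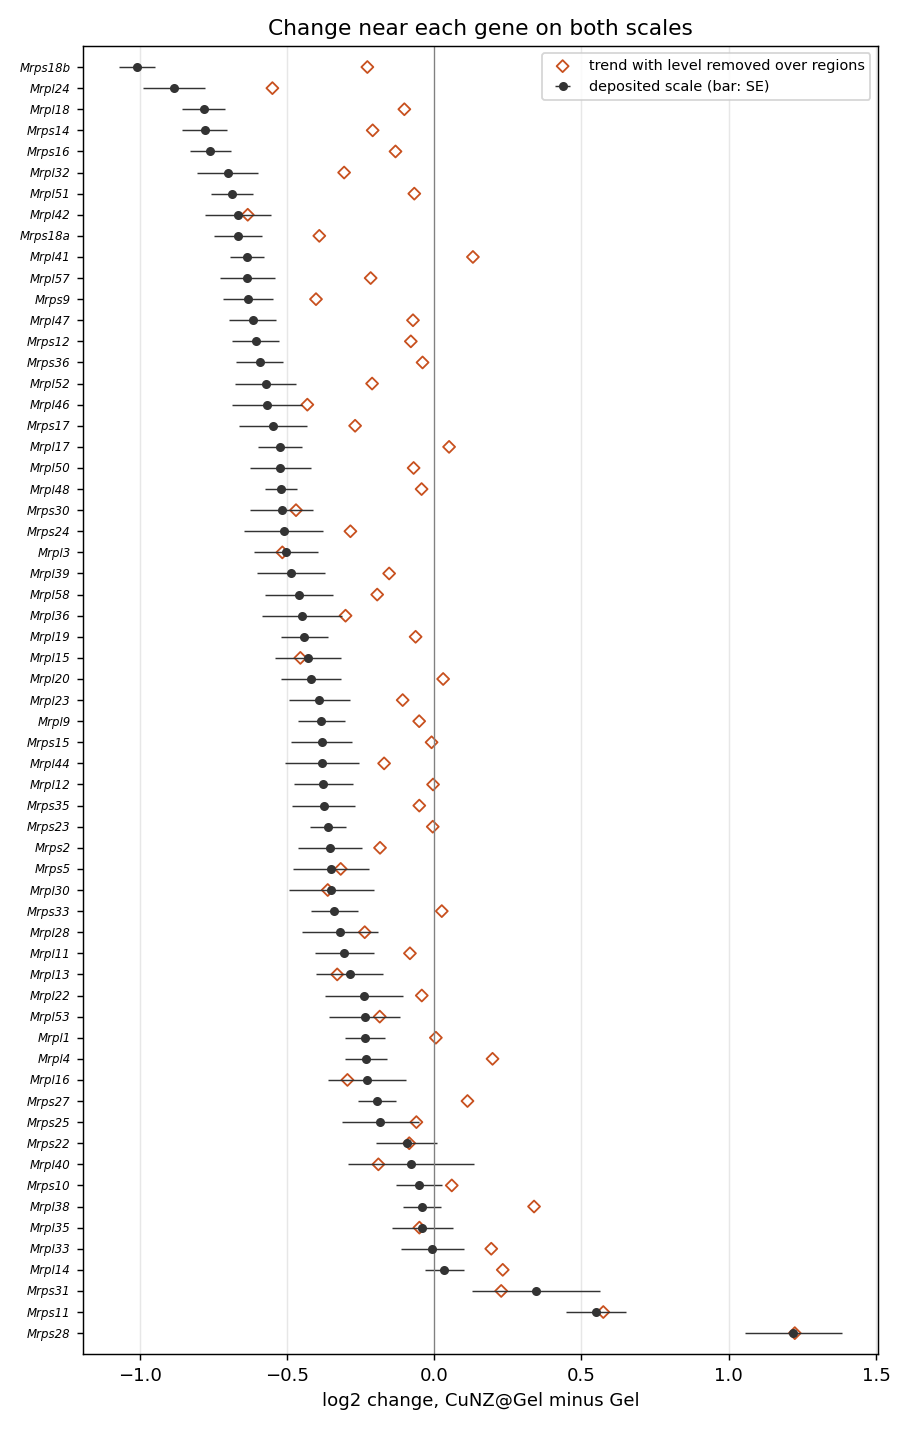
Log2 change, CuNZ@Gel minus Gel, for each of the 61 genes on the deposited scale (filled points, bars are SE) and with the trend removed over regions before summing (open diamonds), genes ordered by the deposited change. Most diamonds lie nearer to 0 than their filled points, as for Mrps18b at -1.01 and -0.23, while those of Mrps11 and Mrps28 stay near their points.

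Removing the trend over gene sums left 29 of the 47 lower genes called lower, took the call from 17 and turned 1, Mrps27, to higher. A group of 12 genes was called lower on the deposited scale and with the trend removed in either way. They are Mrps18b, Mrpl24, Mrps14, Mrpl32, Mrps18a and Mrps30, named by the rule, and Mrpl42, Mrps9, Mrpl46, Mrpl3, Mrpl15 and Mrpl30, named after their values were seen. The share of all genes called lower in this combined way was not counted, so the number 12 is not read as particular to these genes. With the trend removed region by region the falls were -0.55 ± 0.11 for Mrpl24, -0.47 ± 0.11 for Mrps30, -0.39 ± 0.09 for Mrps18a, -0.31 ± 0.11 for Mrpl32, -0.23 ± 0.06 for Mrps18b and -0.21 ± 0.08 for Mrps14. Mrpl18, Mrps16 and Mrps12, each with 1 strong region, were at -0.10, -0.13 and -0.08 on that scale and were not called. Mrpl41 turned to 0.13 there, and Mrps23 was at 0.045 with the trend removed over gene sums, neither called. With the mean of region log2 values in place of the sum, which gives weak regions equal weight, 28 genes were lower and 5 higher (20.3% and 19.6% over all genes). There Mrps18a turned to 0.14 and Mrpl41 to 0.10, both uncalled. Of the 12 genes, 6 kept their call on that measure (Mrps18b, Mrpl24, Mrpl32, Mrpl42, Mrpl3 and Mrpl30) and 6 lost it: Mrps18a, Mrps14 (-0.23), Mrps30 (-0.098), Mrps9 (-0.11), Mrpl46 (-0.067) and Mrpl15 (-0.026). So the genes that fell most on the deposited scale were in part different from those that fell most for their level.

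Falls were called most often in the strongest region of each gene. Of the 61 strongest regions, 49 were called lower and 2 higher in limma's test over 77014 regions, against 40.1% and 15.3% of the strongest regions of all genes. The other 86 regions tested gave 12 lower and 15 higher, against 12.7% and 24.2% of such regions of all genes. Among the 49 tested regions that were not among the 2 strongest of their gene, 13 were called higher and 1 lower, against 25.1% and 10.1% of such regions of all genes, so the share called higher was near the background. In all, 61 of the 147 regions tested were lower and 17 higher, against 21.9% and 21.2% of all regions, and 5 regions did not pass the filter. With the trend removed 22 were lower and 16 higher (13.8% and 18.8% over all regions), and of the strongest regions 10 were lower and 2 higher (16.1% and 17.9% over all genes). Those last counts lie near the background. Scaled by library totals, 27 regions were lower and 29 higher (11.9% and 30% over all regions), and 23 strongest regions were lower and 3 higher (24.6% and 23.4% over all genes). On the background scale 114 regions were lower and 3 higher (60.6% and 4.85% over all regions), and 58 strongest regions were lower and 0 higher (75.1% and 3.08% over all genes).

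The strongest regions of these genes were mostly strong among all regions too. Of the 61 strongest regions, 44 lay in the upper 2 deciles of all regions by mean level. There the 55 regions of mitochondrial ribosomal protein genes gave 46 lower and 0 higher, against 71.3% and 7.51% of all regions in those deciles. In the top decile their median change was -0.61 and that of all regions -0.60. In the decile below it the medians were -0.38 and -0.34. In most lower deciles the medians lay further apart, but they were close in decile 2 (0.25 and 0.21). Decile 8, with 22 regions of these genes of which 14 were the strongest of their gene, had medians of -0.36 and -0.14, with 10 regions lower and 1 higher against 30.4% and 21.3% of all regions there. Decile 7, with 8 regions, had 0.79 and -0.032, and decile 4, with 10 regions, -0.26 and 0.15. Differences between these genes and other regions of the same decile were not tested.

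**Figure D3:**
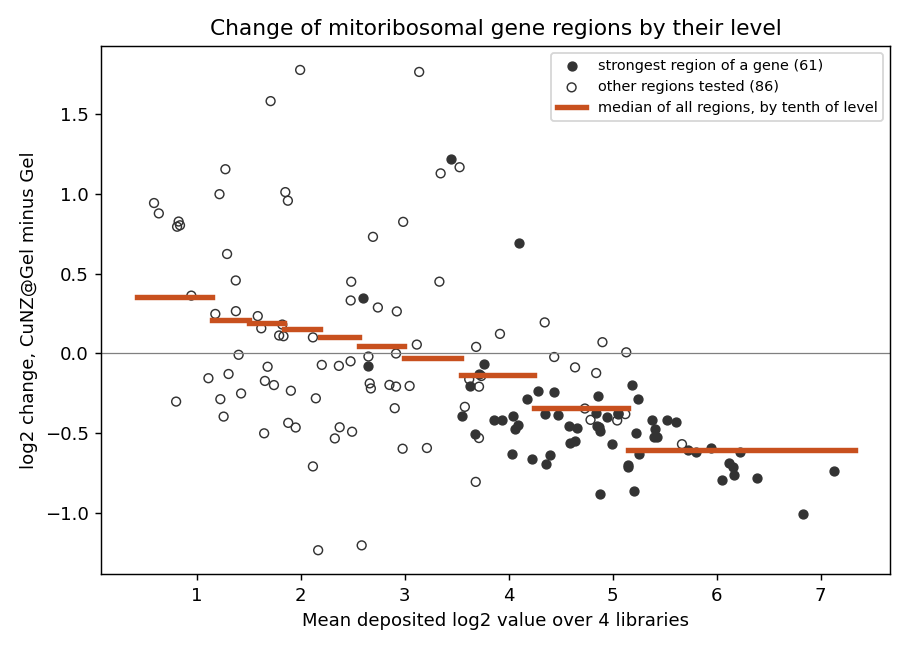
Log2 change of the 147 tested regions against their mean deposited log2 value, filled for the strongest region of each gene and open for the others; bars mark the median of all regions in each decile of level. Filled points follow the bars down to about -0.60 at the right, and the open points at the left scatter on both sides of 0.

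How far the regions of 1 gene went apart is seen in 9 of the 37 genes with several regions. These 9 had at least 1 region called higher and 1 called lower. Over all regions 21.2% were called higher and 21.9% lower. The share of such mixed genes among all genes was not counted, so the number is not read as particular to these genes. Mrpl38, a mitochondria-specific subunit of the central protuberance, had a sum of 87.0 and 86.9 RPM in Gel and 83.3 and 85.7 in CuNZ@Gel and was not called (-0.04 ± 0.06, limma adjusted p = 0.627). It was called higher with the trend removed over gene sums (0.35), over regions (0.34) and with library totals (0.24). Its strongest region, chr11:116029210-116030471, fell from 49.5 and 48.8 to 37.2 and 32.9 RPM, a change of -0.48 ± 0.10. The third region, chr11:116033445-116033671, rose from 3.09 and 4.58 to 13.6 and 17.1 RPM (1.76 ± 0.19, limma adjusted p = 6.24e-11). The sum therefore held opposite changes, each without overlap of the groups.

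Mrps27 encodes a pentatricopeptide-repeat subunit specific to mitochondria. It was the only gene of the 61 called lower as deposited and higher with the trend removed over gene sums. The changes were -0.19 ± 0.06 and 0.19 (limma adjusted p = 0.0147 and 0.0184). Its call on the deposited scale was lost without either Gel replicate (limma adjusted p = 0.121 without replicate 1 and 0.0669 without replicate 2). Its 2 strongest regions, chr13:99489498-99490208 and chr13:99480574-99481558, fell by 0.29 ± 0.10 and 0.38 ± 0.10. A weaker one, chr13:99515681-99516179, held 1.40 and 0.928 RPM in Gel and 5.70 and 7.11 in CuNZ@Gel (1.78 ± 0.25, limma adjusted p = 8.3e-08). It was the single region of the 152 with a peak in both CuNZ@Gel libraries and in neither Gel library. Mrpl4, named after its values were seen, was called lower as deposited (-0.23 ± 0.07) and higher with the trend removed over regions (0.20 ± 0.07). The limma adjusted p was 0.00897 and 0.0334.

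Mrpl14, a subunit-interface protein gene with 7 regions, had sums of 81.9 and 83.3 RPM in Gel and 81.5 and 87.9 in CuNZ@Gel, which overlapped. It too was called higher with the trend removed over gene sums (0.42), over regions (0.23) and with library totals (0.32), and was called lower on the background scale (-1.01). Its region chr17:46005992-46006695 rose from 6.65 and 6.74 to 15.3 and 17.3 RPM (1.17 ± 0.16) while its strongest region, chr17:45996300-45997996, fell by 0.27 ± 0.11 (limma adjusted p = 0.0499). Mrpl33 (-0.006 ± 0.11) and Mrpl35 (-0.04 ± 0.10) were likewise near 0 as sums. In Mrpl33 the weaker region, chr5:31785830-31786466, rose by 1.13 ± 0.18, and in Mrpl35 3 weak regions were called higher. Of these, chr6:71754994-71755277 went from 1.05 and 0.742 to 4.12 and 5.24 RPM (1.58 ± 0.27). The regions named here near Mrpl35, Mrpl38 and Mrps27 were the 3 that were called higher even on the background scale, at 0.90, 0.84 and 1.03. Mrpl1, with 7 regions and a protein of the mobile L1 stalk, fell by 0.23 ± 0.07 and lost its call without Gel replicate 1 (limma adjusted p = 0.110). In its case 1 region was called lower and 0 higher.

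**Figure D4:**
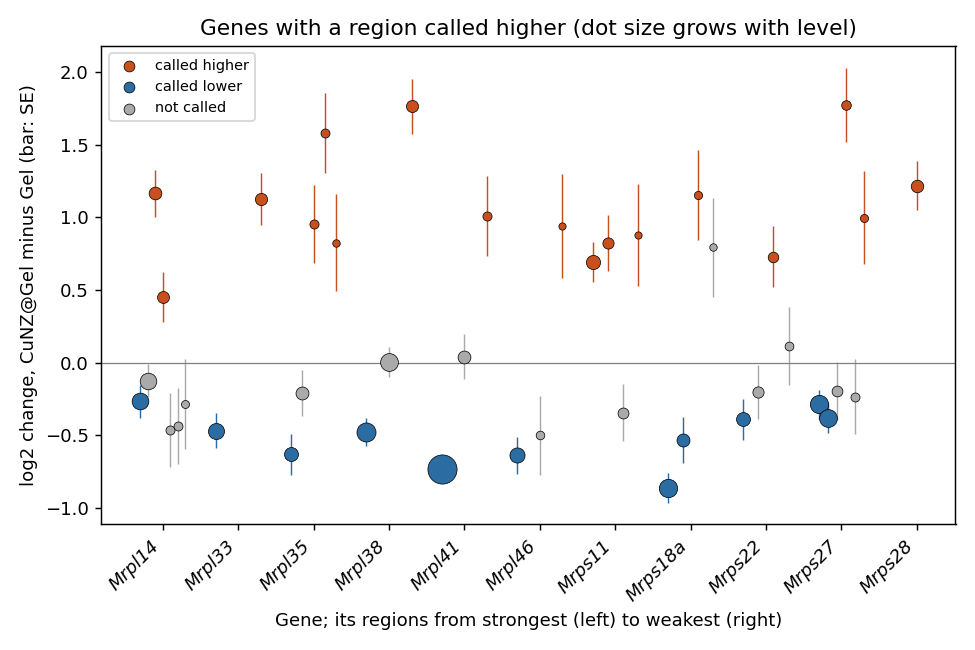
Log2 change (bars are SE) of each tested region of the 11 genes that have a region called higher, regions running from strongest at the left to weakest at the right within a gene, with dot size growing with level and colour giving the call. The strongest region lies below 0 in 9 of these genes, and above it in Mrps11 and Mrps28.

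Genes with 1 region were lower in 20 of 24 cases, those with 2 or 3 regions in 18 of 23 and those with 4 or more in 9 of 14. The shares over all genes in these classes were 32.4%, 35.3% and 41.3%. The median changes were -0.51, -0.35 and -0.26, against -0.13, -0.082 and -0.11 over all genes. Among the 61 genes, those with more regions thus had smaller falls of their sums. With the trend removed region by region before summing, the medians were -0.12, -0.11 and -0.047. Over all genes they were -0.079, -0.035 and 0.035, which also rose with the number of regions.

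Mrps11 and Mrpl46 share a promoter in RefSeq, their starts lying 41 bases apart on opposite strands in the interval printed above. They differed in direction. The strongest region named for Mrpl46, chr7:78432502-78433159 in GRCm39, fell from 27.0 and 23.8 to 17.1 and 14.7 RPM (-0.64 ± 0.13, limma adjusted p = 5.03e-05). The strongest region named for Mrps11, chr7:78456327-78457569, rose from 12.4 and 12.6 to 21.0 and 20.6 RPM (0.69 ± 0.14, limma adjusted p = 3.96e-05). These regions lie 23167 bases apart, so at most 1 of them can hold the shared start. Another Mrps11 region, chr7:78453538-78453826, also rose (0.82 ± 0.19), and chr7:78441183-78441805 was at -0.34 ± 0.20 and not called. Whether any of them covers a start was not analysed here, since regions and promoter sequences are on different builds.

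Nearest-gene naming also divides the regions of divergent gene pairs. Of the 61 genes, 17 have a neighbour on the opposite strand within 1000 bases of the start, and for 8 of these the neighbour had regions of its own. Ppp1r10, opposite Mrps18b, fell by 0.93 ± 0.14, close to the fall of Mrps18b itself. Ska3, opposite Mrpl57 across the 75 bases printed above, rose by 1.67 ± 0.19, from 2.91 and 3.84 to 12.1 and 13.7 RPM, whereas Mrpl57 fell by 0.63 ± 0.09. Ptcd2, which faces Mrps27 and encodes another mitochondrial RNA-binding protein, rose by 0.22 ± 0.08. RefSeq lists 77 names under the same rule, and the 16 others, Mrps7 and Mrps18c among them, were not analysed here under their own names. For 10 of the 16 a divergent neighbour had regions, and 7 of these neighbours were called lower and 1 higher, beside the 36.1% and 20.5% of all genes. On the scale with the trend removed over gene sums, 3 were lower and 1 higher (22.8% and 24.2% of all genes). Fau, opposite Mrpl49, encodes a ubiquitin-like fusion to a cytosolic ribosomal protein and fell by 0.71 ± 0.10. Twnk, the mitochondrial DNA helicase gene opposite Mrpl43, was called higher at a low level, with 1.11 and 1.42 RPM in Gel and 1.94 and 4.36 in CuNZ@Gel, and lost that call with the trend removed (limma adjusted p = 0.204). These neighbours were named after their values were seen.

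Changes were also set beside the promoter motifs. The median change was -0.52 for the 19 genes with the ETS motif and -0.38 for the 35 others with a window. The general Sp1 motif gave -0.55 with it (25 genes) and -0.38 without (29 genes). CCAAT gave -0.51 (24 genes) and -0.38 (30 genes), so such a gap was not particular to ETS. For the NRF1 core both medians were -0.43 to -0.44, and for YY1 they were -0.45 with the motif and -0.42 without. Differences between these classes were not tested. The windows of Mrps27 and Mrps18a, printed above, both hold the ETS motif, and the sum of the former changed by -0.19 and that of the latter by -0.67.

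The authors' peak lists gave the same direction in peak height. A peak was found in all 4 libraries in 89 of the 152 regions, in both Gel libraries alone in 13, and in both CuNZ@Gel libraries alone in 1. In the whole series 32082 of 80929 regions had a peak in every library, and the shares of the other 2 classes were not counted. The strongest region had a peak in all 4 libraries for 59 of 61 genes, and in 30 of the 91 other regions. In the 89 shared regions the median fold enrichment, the authors' own ratio over background, was 13.7 and 13.4 in the Gel libraries and 8.34 and 9.53 in the CuNZ@Gel libraries. Both CuNZ@Gel folds were below both Gel folds in 81 of the 89 and above in 1, against 75.5% and 5.06% of all 32082 regions with a peak in every library. Of the 13 regions with peaks in both Gel libraries alone, 2 were called lower, the third region of Mrpl19 (chr6:81939973-81940298, -1.24 ± 0.25) and the second region of Mrpl42 (chr10:95301354-95301668, -1.20 ± 0.22). These were the largest falls of any tested region of the 61 genes. Fewer peaks in CuNZ@Gel coincide with its fewer region reads over background.

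Genes that work with the mitochondrial ribosome were called lower more often than higher in each of 5 lists, though not all of their members were called. Of 5 ribosomal proteins without an Mrp name 3 had a region, and Aurkaip1 (-0.52 ± 0.09) and Dap3 (-0.72 ± 0.21) were lower while Ptcd3 was not called (0.45 ± 0.25). Of 21 genes for ribosome assembly and RNA processing 15 were lower and 1, the rRNA methyltransferase gene Mettl15, was higher (0.58 ± 0.12). Among 14 translation factor genes 10 were lower and 0 higher. These included Tufm, the elongation factor that delivers aminoacyl-tRNA, at -0.81 ± 0.09, and the release factor gene Mtrf1l at -0.88 ± 0.06. Of 10 genes for mitochondrial DNA transcription and upkeep 7 were lower and 1 higher, with the packaging factor gene Tfam at -0.63 ± 0.09. Of 11 genes for nuclear regulators 6 were lower and 0 higher, among them Nrf1 (-0.72 ± 0.08), Yy1 (-0.89 ± 0.08), Esrra (-0.70 ± 0.06) and the coactivator gene Pprc1 (-0.78 ± 0.08). The background for all these counts is the 36.1% of genes called lower. After removal of the trend over gene sums, 2 of 2, 8 of 15, 8 of 10, 3 of 7 and 5 of 6 of these lower genes kept their call, in the order given. Of all genes tested in each list, 2 of 3, 8 of 21, 8 of 14, 3 of 10 and 6 of 11 were called lower on that scale. The share over all genes there was 22.8%. Among the regulators, Gabpb2 lost its call on that scale (-0.08), Ppara gained a call as lower (-0.55) and Myc gained one as higher (0.42). As deposited, Ppara, Myc, Gabpb1, Ppargc1a and Ppargc1b were not called. All genes of these 5 lists named here, Ppara and Myc among them, were named after their values were seen. Mtrf1l and Tufm had the largest falls among the 14 translation factor genes.

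Cytosolic ribosomal protein genes, the counterpart in the cytosol, gave 54 lower and 0 higher of 63, with a median of -0.67 and a median gene level of 5.44 on the log2 scale. Respiratory chain and ATP synthase genes, whose proteins are partly made by the mitochondrial ribosome, gave 61 lower and 3 higher of 72, with a median of -0.49 at a median level of 5.03. The median level of the mitochondrial ribosomal protein genes was 5.05. With the trend removed over gene sums the 3 medians were -0.36, -0.31 and -0.22 in that order. Differences between these groups were not tested.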

How the data were processed

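Accessibility was profiled in 4 libraries, 2 Gel and 2 CuNZ@Gel. Genome build GRCm39 and the tools MACS2 2.2.8, Picard 2.27.5, fastp 0.23.1, SAMtools 1.17 and Bowtie2 2.3.4.3 are listed per the submitters' processing notes, without their roles. The authors deposited log2 values for 80929 regions. These were read as log2(RPM + 1), since every low value gave a whole number of reads within 0.1 once the logarithm was reversed. They also deposited a peak list per library with a fold enrichment (ratio), -log10 p- and q-values and an integer score. Merging the lists gave the regions their GRCm39 coordinates, counted from 1, and 77101 of 77103 regions lay on the chromosome RefSeq gives for their gene. Left out of that check were 48 regions on unplaced scaffolds, and 4 rows that name no gene stayed out of the tests.

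The gene value was log2(summed RPM + 1), which understates changes of low genes. Regions and genes with at least 0.710 reads per 1000000 in 2 libraries and 15 reads in all were tested with limma 3.58.1 in R 4.3.3 (two-sided, with an intensity trend and Benjamini-Hochberg adjustment at 0.05), fitted on the whole table and checked on simulated data. Count tests were not run, as the deposited values are log2, though whole reads could be recovered from them. The trend with level was removed by cyclic loess. The background pileup was recovered from the MACS2 folds and is set by MACS2 from all reads it used, peaks included. Other alternatives were library totals, median-of-ratios factors, pseudocounts of 0.25 and 5, filters, no intensity trend, a mean of region log2 values, leaving out each library, and the replicate block.

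Named genes were the 6 largest falls and rises, the 6 highest levels, the 4 with most regions, genes fixed by role, and genes called oppositely with the trend removed. Members and lists were chosen with earlier results of these data known. Same-numbered libraries did not deviate together (correlation 0.043 over genes), so they were not treated as pairs. RefSeq tables of build GRCm38.p6 gave names, neighbours and sequences, and their coordinates were never set against GRCm39. The 7 genes without a promoter window are named only: Mrpl4, Mrpl13, Mrpl15, Mrpl19, Mrpl38, Mrps28 and Mrps35. The total number of sequenced reads is unknown.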

Additional observations from a re-analysis of the deposited data

How the results depend on the processing

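Of the 47 genes lower and 2 higher (median change -0.39), 46 and 2 remained in number with median-of-ratios factors. Library totals alone gave 19 lower and 7 higher (median -0.11), 27 regions lower and 29 higher, and 23 strongest regions lower. Removing the trend over the table gave 29 genes lower and 6 higher (median -0.22), 22 regions lower, and 10 strongest regions lower; removing it over regions before summing gave 13 and 5 (median -0.085). Background scaling gave 0 genes higher (median -1.42), 114 regions lower and 3 higher, and 0 strongest regions higher. The mean of region log2 values gave 28 and 5 genes (median -0.25). A pseudocount of 5 gave a median of -0.36, and a filter 5 times stricter 11 regions higher. No intensity trend gave 38 genes lower and 2 higher, with 31 regions and 24 strongest regions lower. There Mrps18b had limma adjusted p = 0.00703. Mrpl1, Mrpl11 and Mrps27 lost their calls there (limma adjusted p = 0.0829, 0.0796 and 0.106). Leaving out 1 library gave 35 to 45 genes lower, 2 higher in each case, medians of -0.41 to -0.37, 43 to 60 regions lower and 10 to 14 higher, and 38 to 49 strongest regions lower; region rises were 10 without Gel replicate 1 and 11 without Gel replicate 2. A stricter peak threshold (-log10 q of at least 5) left 82 regions with a peak in all libraries, and requiring peaks to cover 50% of the region or more left 60.

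Among the 25 genes named by the rule, changes of sign where at least 1 of the values was called were as follows. Library totals gave Mrpl1 0.047, Mrpl33 0.27, Mrpl38 0.24 and Mrps27 0.088. Removing the trend over gene sums gave Mrpl1 0.15, Mrpl38 0.35, Mrps23 0.045 and Mrps27 0.19, and over regions Mrpl1 0.0056, Mrpl38 0.34, Mrpl41 0.13 and Mrps27 0.11. Background scaling gave Mrpl14 -1.01 and Mrps11 -0.48. The mean of region log2 values gave Mrpl33 0.33, Mrpl35 0.54, Mrpl38 0.43, Mrpl41 0.10, Mrps18a 0.14 and Mrps27 0.28. Signs also changed where neither value was called: Mrpl35 was at 0.24 with library totals and 0.18 with the trend removed over gene sums, Mrpl33 at 0.21 with the trend removed over gene sums and 0.19 over regions, and Mrps31 at -0.53 on the background scale. Beyond what each alternative changes by construction, the cause was not tested. The 25 calls were the same with median-of-ratios factors, no filter, either pseudocount, the stricter filter and without CuNZ@Gel replicate 1.

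With the replicate block, 47 genes were lower and 2 higher (median -0.39), 62 regions lower and 18 higher, and 50 strongest regions lower and 2 higher, and no call of the 25 genes changed. The numbers are not known to pair libraries. Depth limits the weak regions: the CuNZ@Gel libraries hold fewer reads, so small changes of regions at a few RPM were not detectable.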
